A study of Mus musculus with 22 samples.

Results

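Transcripts of 10 genes of the IL-6 cytokine family were followed in fibroblasts sorted from mouse skin after the insertion of a subcutaneous expander. The genes were chosen by name, with earlier results of these data known. They comprise the ligands Il6, Lif, Il11 and Clcf1, the receptor subunits Il6st, Il6ra, Lifr and Osmr, the transcription factor gene Stat3 and its feedback inhibitor Socs3. All 10 were found among the 55414 rows of the count table, and all 10 were among the 17554 genes with enough counts to be tested. Every mouse was operated on, through a cut in the back skin near the tail. EXP mice received a hydrogel that was stitched in place under the skin of the neck region, and CTRL mice had the same operation with no expander. Day 1 had 4 libraries of CTRL mice and 5 of EXP mice, day 2 had 3 of each arm, and day 4 had 4 of CTRL mice and 3 of EXP mice. The labels give no strain, sex or age. Live cells without CD31, CD45, CD117 and EpCAM that carried CD34 and PDGFRα were sorted, so these data say nothing of cells outside that gate. Libraries are numbered within a group and are not stated to come from 1 mouse each, and p-values therefore measure the spread between these libraries, which may be partly technical.

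Cytokines of this family signal through gp130, the shared receptor chain encoded by Il6st. IL-6 and IL-11 each bind a receptor of their own that then recruits gp130, LIF pairs gp130 with the LIF receptor, oncostatin M pairs it with the oncostatin M receptor, and CLCF1 acts through the CNTF receptor together with the LIF receptor and gp130. The assembled receptor activates JAK kinases, these phosphorylate STAT3, and STAT3 induces SOCS3, which binds gp130 and the JAKs and dampens the signal. Fibroblasts are known as a source of IL-6, LIF and IL-11 in wounded and inflamed tissue.

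Depth was similar across the 22 libraries, at 21461294 to 30210204 counts each, and levels are given as CPM, counts scaled to a fixed library total, on TMM-scaled totals unless stated otherwise. On plain library totals, Pdgfra was at 185 to 1293 CPM and Cd34 at 274 to 2144 CPM over all libraries, while Pecam1, Ptprc, Kit and Epcam, the genes of the excluded surface proteins, reached at most 3.76, 0.248, 0.752 and 1.89 CPM. In bulk RNA, fewer cells that express a gene and less RNA per cell cannot be told apart. A group of 191 genes that varied with Rnf10 within groups placed 7 libraries above and 15 below a gap of 0.64 in mean log2 CPM. The 7 were CTRL replicates 1 to 3 and EXP replicates 1 and 2 of day 1, and CTRL replicates 3 and 4 of day 4. The labels record no batch that matches this division, and the values within each side are given together after the gene lists.

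The 250 bases before the start are shown for Il6, the most abundant ligand gene, for Lif and Il11, the ligand genes with the largest differences, and for Socs3, the member lower in EXP on days 1 and 2. They come from RefSeq annotation on GRCm38.p6, not from the mm39 build of the counts, and 9 of the 10 members had an entry, Clcf1 being without one. Both strands of each were searched for an AP-1 site (TGANTCA), an NF-kB site, a STAT site (TTCNNNGAA) and a CRE site (TGACGTCA), none of which overlapped another here, and matches are in capitals. Sequences run 5′ to 3′ in the direction of the gene and end at the base before its start.
Il6, chr5:30012864-30013113, plus strand: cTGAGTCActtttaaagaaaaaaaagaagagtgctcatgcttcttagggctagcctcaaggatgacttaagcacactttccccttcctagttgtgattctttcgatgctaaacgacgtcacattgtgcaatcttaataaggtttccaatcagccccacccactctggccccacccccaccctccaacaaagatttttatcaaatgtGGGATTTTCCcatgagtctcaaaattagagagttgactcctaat
Lif, chr11:4257318-4257567, plus strand: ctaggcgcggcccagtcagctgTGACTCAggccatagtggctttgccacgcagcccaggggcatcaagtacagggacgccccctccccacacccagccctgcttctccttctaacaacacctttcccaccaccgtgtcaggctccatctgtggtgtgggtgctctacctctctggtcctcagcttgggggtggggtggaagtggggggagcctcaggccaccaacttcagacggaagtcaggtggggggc
Il11, chr7:4778142-4778391, minus strand: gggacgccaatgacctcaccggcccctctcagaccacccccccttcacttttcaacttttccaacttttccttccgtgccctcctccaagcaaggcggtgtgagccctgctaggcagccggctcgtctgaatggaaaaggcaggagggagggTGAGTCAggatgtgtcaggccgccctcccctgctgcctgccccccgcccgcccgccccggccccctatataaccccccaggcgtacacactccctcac
Socs3, chr11:117969367-117969616, minus strand: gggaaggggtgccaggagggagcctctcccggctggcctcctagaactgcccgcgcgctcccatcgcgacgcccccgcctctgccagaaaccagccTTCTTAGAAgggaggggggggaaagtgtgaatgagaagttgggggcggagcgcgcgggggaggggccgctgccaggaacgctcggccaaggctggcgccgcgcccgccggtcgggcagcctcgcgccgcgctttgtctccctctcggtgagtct
In Il6 an AP-1 match began at -249 and an NF-kB match at -44 from the start, in Lif an AP-1 match began at -228, in Il11 an AP-1 match began at -98, and in Socs3 a STAT match began at -154. Of 32851 promoter windows of this length, 6.75% held the AP-1 letters, 1.21% the NF-kB letters, 7.02% the STAT letters and 1.55% the CRE letters. A match is a string of letters and not a measured binding site. Of the 11 windows found for the 9 members, since Il11 and Lifr have more than 1 start, the other windows held none of the 4 motifs.

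Expanded skin fibroblasts carried more transcript of 3 ligands and 2 receptor chains and less of the feedback inhibitor on days 1 and 2, and on day 4 more of 2 of those ligands. On day 1, 7 of the 10 members passed an adjusted p of 0.05 between EXP and CTRL (edgeR quasi-likelihood test, Benjamini-Hochberg over all tested genes), against 28.5% of all tested genes. Lif, Il11, Clcf1, Lifr, Osmr and Stat3 were higher in EXP, against 13.6% of genes higher, and Socs3 was lower, against 14.9% of genes lower. On day 2, 6 members passed, against 13.5% of genes. Lif, Il11, Clcf1, Lifr and Osmr were higher, against 7.85%, and Socs3 was lower, against 5.62%. On day 4, 4 members passed, against 22.6% of genes, with Il11 and Clcf1 higher, against 13.6%, and Il6ra and Stat3 lower, against 8.96%. The median log2 fold change of the 10 members was 0.69 on day 1, 0.65 on day 2 and 0.22 on day 4, and over all tested genes it was 0.008, 0.025 and 0.055. Il11 and Clcf1 were the members called on every day, and Il6 and Il6st were called on none. The members, and the gene lists below, were chosen with earlier results of these data known. Counts beside the shares of all tested genes are therefore a description and not a test of the set.

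**Figure D1:**
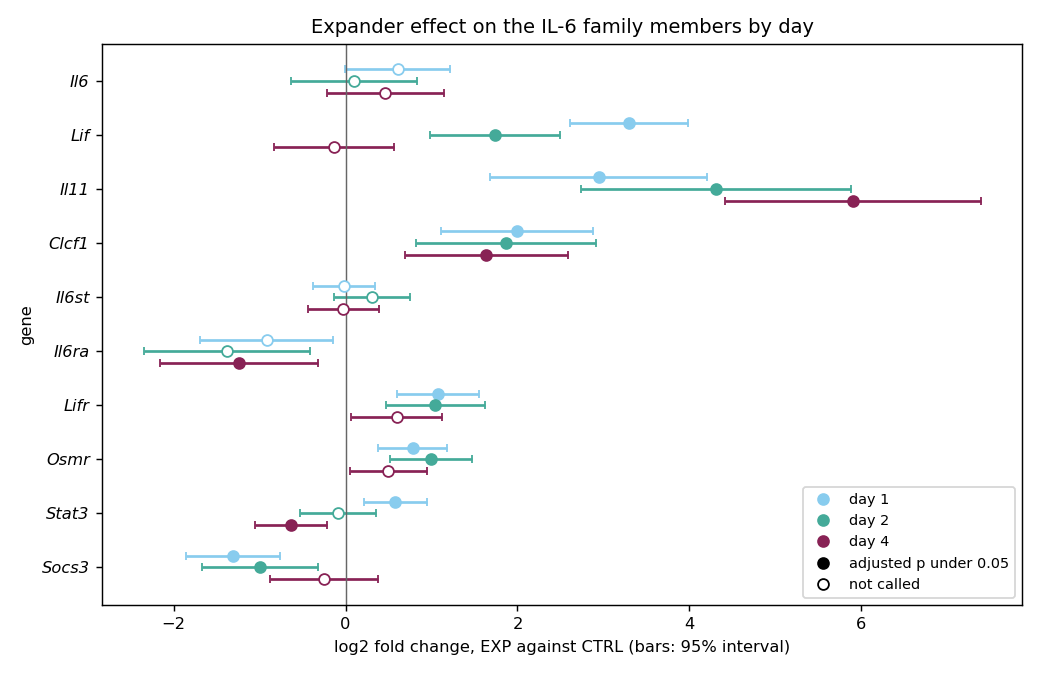
Log2 fold change of EXP against CTRL for the 10 members (rows) on days 1, 2 and 4 (colours), with 95% intervals from the edgeR fit as bars and filled points for an adjusted p under 0.05. Lif goes from 3.30 on day 1 to -0.14 on day 4, while the Il11 estimates are 2.94, 4.31 and 5.90 on days 1, 2 and 4.

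Among the ligands, Il6 was by far the most abundant per length of transcript. Over the 22 libraries its median was 243 CPM per kilobase of exon, against 17.3 for Lif, 3.10 for Il11 and 2.46 for Clcf1. In CTRL libraries Il6 made up 97.0% ± 0.505 (SD, n = 4) of the summed per-kilobase level of these 4 ligands on day 1, 94.6% ± 1.41 (SD, n = 3) on day 2 and 92.5% ± 2.82 (SD, n = 4) on day 4. In EXP libraries its share was 84.6% ± 5.51 (SD, n = 5), 80.4% ± 3.43 (SD, n = 3) and 83.3% ± 13.8 (SD, n = 3). The Il6 share of every EXP library of days 1 and 2, at most 91.3%, lay below that of every CTRL library of the same day, the lowest of which was 93.4%, and on day 4 the arms overlapped, at 67.4% to 92.5% in EXP and 88.7% to 94.9% in CTRL. On day 1, Lif took 11.9% ± 4.93 (SD, n = 5) of the ligand sum in EXP against 1.98% ± 0.389 (SD, n = 4) in CTRL. On day 2, Lif took 10.7% ± 1.15 and Il11 6.45% ± 3.57 in EXP (SD, n = 3), against 4.11% ± 1.05 and 0.405% ± 0.0486 in CTRL (SD, n = 3). On day 4, Il11 took 2.61% to 26.6% in EXP against 0.216% to 0.513% in CTRL, with the highest share in replicate 1, and Lif took 3.28% to 4.77% in EXP against 4.29% to 9.73% in CTRL. The lengths are those of GENCODE M21 exons, so the per-kilobase scale assumes that annotation.

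Lif, which encodes leukaemia inhibitory factor, had the largest rise of the members on day 1, and was not called on day 4. On day 1 Lif was at 20.4, 19.8, 22.1 and 15.0 CPM in CTRL and at 197, 196, 197, 113 and 247 CPM in EXP. Every EXP library lay above every CTRL library, and the lowest EXP library was several times the highest CTRL library. The log2 fold change was 3.30 (standard error 0.33, 95% interval 2.61 to 3.98, adjusted p = 3.01e-06), a fold of 9.82. On day 2 the CTRL libraries held 52.4, 34.7 and 40.3 CPM and the EXP libraries 122, 168 and 136 CPM. The arms again did not overlap, and the log2 fold change was 1.74 (standard error 0.37, adjusted p = 0.00415). On day 4 Lif stood at 67.6, 128, 28.7 and 78.2 CPM in CTRL and at 72.4, 85.5 and 48.6 CPM in EXP, so that all EXP libraries fell within the range of the CTRL libraries. That difference was -0.14 with a 95% interval of -0.83 to 0.56 (adjusted p = 0.807).

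The narrowing of the Lif difference had a part in each arm. The EXP effect on Lif differed between the days (joint test, adjusted p = 7.09e-04), as it did for 8.64% of tested genes. Between days 4 and 1 the effect changed by -3.43 on the log2 scale (standard error 0.47, adjusted p = 2.58e-04), where 13.2% of genes passed, and between days 2 and 1 by -1.56 (95% interval -2.53 to -0.59, adjusted p = 0.0728), where 3.03% did. Within CTRL, Lif changed over the days (adjusted p = 0.0210), from 19.3 ± 3.06 CPM (SD over 4 libraries) to 42.5 ± 9.06 CPM (SD over 3 libraries) and 75.6 ± 40.8 CPM (SD over 4 libraries), with all 4 libraries of day 4 above all 4 of day 1. Only 0.302% of tested genes changed over the days within CTRL. Within EXP, Lif also changed (adjusted p = 0.0165, against 14.1% of genes), from 189.8 ± 48.3 CPM (SD over 5 libraries) to 142 ± 23.8 CPM (SD over 3 libraries) and 68.8 ± 18.7 CPM (SD over 3 libraries). The change within CTRL was not called without day 1 CTRL replicate 1 (adjusted p = 0.0842), replicate 2 (0.0512) or replicate 4 (0.0562), with a range of 1.81e-05 to 0.143 over all alternatives. The change within EXP was not called without day 4 EXP replicate 3 (adjusted p = 0.0588, range 0.00204 to 0.0588). Leaving out no library ended the day 1 or day 2 call or that of the day-dependent effect.

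Il11, which encodes interleukin-11, was low in CTRL and higher in EXP on all 3 days. On day 1 it was at 2.29, 1.39, 3.46 and 1.04 CPM in CTRL and 15.0, 25.5, 9.46, 15.7 and 13.3 CPM in EXP, and the log2 fold change was 2.94 (standard error 0.60, adjusted p = 0.00136). Day 2 CTRL libraries held 1.92, 1.96 and 2.14 CPM and EXP libraries 63.4, 23.7 and 32.6 CPM, for a log2 fold change of 4.31 (standard error 0.75, adjusted p = 0.00128). On day 4 CTRL was at 1.64, 1.81, 1.64 and 1.28 CPM and EXP at 226, 47.9 and 12.7 CPM, for a log2 fold change of 5.90 (standard error 0.71, adjusted p = 9.30e-05). The arms did not overlap on any day, with CTRL libraries at 3.46 CPM at most and EXP libraries at 9.46 CPM at least. The day 4 EXP libraries were the most scattered, and replicate 1, with 8475 reads of Il11, held several times the level of replicates 2 and 3, with 1363 and 349 reads, while the day 4 CTRL libraries had 30 to 43. Without that library the day 4 log2 fold change was 4.22, and the gene was still called in every fit that left out 1 library.

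The Il11 means of EXP were 15.8 ± 5.95 CPM (SD over 5 libraries), 39.9 ± 20.8 CPM (SD over 3 libraries) and 95.4 ± 114 CPM (SD over 3 libraries) on days 1, 2 and 4, and this change within EXP was called (adjusted p = 0.0127). It was not called without day 4 EXP replicate 1 (adjusted p = 0.0750, range over all alternatives 2.49e-04 to 0.107). Whether the EXP effect on Il11 depended on the day did not pass the joint test (adjusted p = 0.0743), but without day 4 EXP replicate 3 it did (adjusted p = 0.00553, range over all alternatives 0.00553 to 0.721). Between days 4 and 1 alone the effect differed by 2.96 (standard error 0.85, adjusted p = 0.0276), a contrast in which 13.2% of tested genes passed. Within CTRL no change over days was called for Il11 (adjusted p = 0.934).

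Clcf1 encodes cardiotrophin-like cytokine factor 1 and rose on each day. It was at 5.66, 2.23, 9.21 and 3.498 CPM in CTRL and 19.98, 12.02, 27.2, 25.3 and 18.1 CPM in EXP on day 1, with a log2 fold change of 1.99 (standard error 0.42, adjusted p = 0.00169). The day 2 libraries held 9.24, 3.87 and 9.47 CPM in CTRL and 38.2, 17.4 and 26.6 CPM in EXP, with a log2 fold change of 1.86 (standard error 0.50, adjusted p = 0.0181). On day 4 the values were 4.59, 9.09, 4.97 and 8.59 CPM in CTRL and 30.3, 9.17 and 24.1 CPM in EXP, with a log2 fold change of 1.64 (standard error 0.45, adjusted p = 0.0152). The arms did not overlap on any day, though day 4 EXP replicate 2 was close to the highest CTRL library. Without day 2 CTRL replicate 2 or day 2 EXP replicate 1 the day 2 call was lost (adjusted p = 0.0963 and 0.102, range over all alternatives 0.00233 to 0.102), and without day 4 EXP replicate 1 the day 4 call was lost (0.111, range 0.00386 to 0.111). No dependence of the effect on the day was called (adjusted p = 0.917). In M21, 311 of its 3806 exonic bases are shared with another gene model on the same strand, so some of its reads could have been assigned elsewhere.

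**Figure D2:**
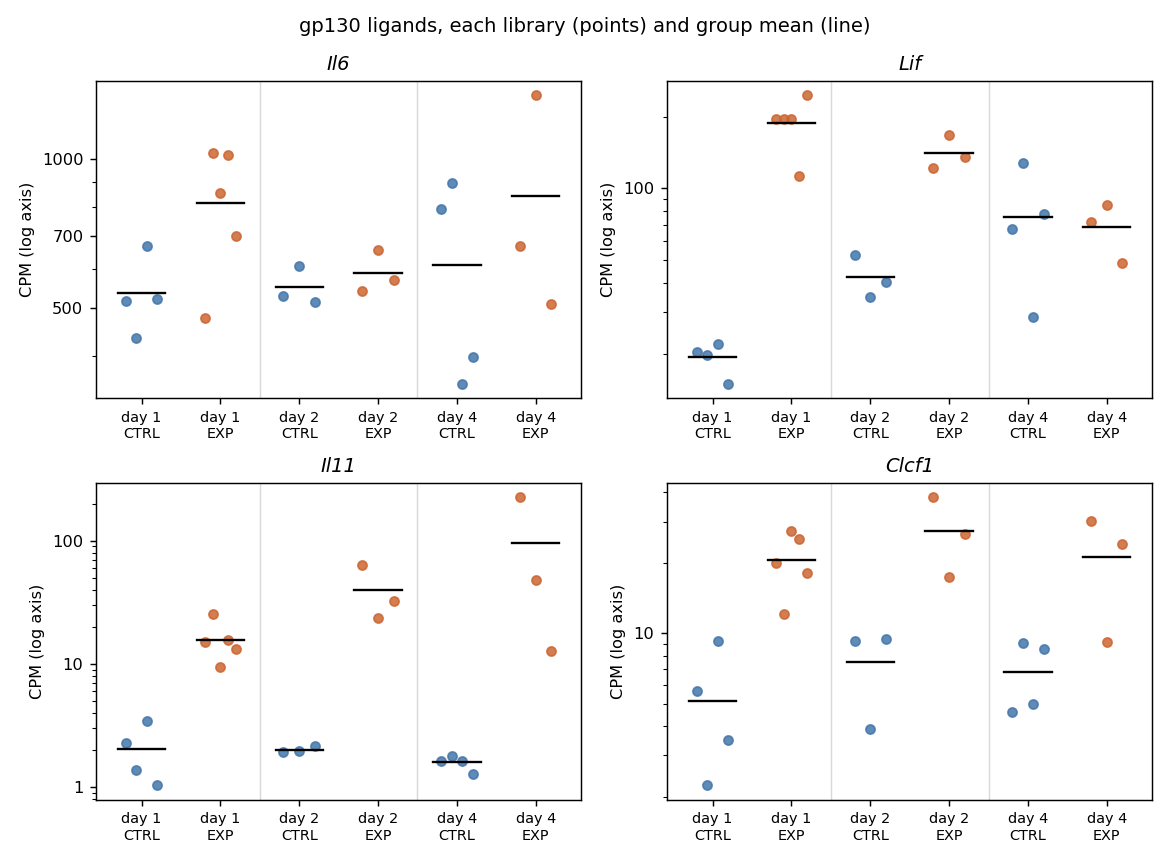
Level of each ligand in every library (points, CPM on a log axis) with group means as lines, by day and arm (CTRL blue, EXP orange). Il11 and Clcf1 show no overlap of the arms on any day, Lif shows none on days 1 and 2 and overlaps on day 4, and Il6 overlaps on all 3 days.

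Il6 itself, the abundant member, was not called on any day. Its day 1 levels were 518, 436, 669 and 522 CPM in CTRL and 478, 1030.5, 854, 1019.5 and 699.8 CPM in EXP, where 4 of the 5 EXP libraries lay above all CTRL libraries. The log2 fold change was 0.61 (95% interval -0.002 to 1.22, adjusted p = 0.127). On day 2 it was at 529.9, 608 and 515 CPM in CTRL and 543, 657 and 571 CPM in EXP, and on day 4 at 794, 897, 352 and 398 CPM in CTRL and 668, 1345 and 511 CPM in EXP. The arms overlapped on all 3 days. The log2 fold changes were 0.10 (95% interval -0.63 to 0.83, adjusted p = 0.888) and 0.46 (95% interval -0.22 to 1.15, adjusted p = 0.320), so a rise to more than 2-fold was outside the day 2 interval but inside those of days 1 and 4. No change over days was called within either arm (adjusted p = 0.929 in CTRL and 0.511 in EXP).

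Genes of 7 further ligands of the family had too few counts to be tested. Osm, the ligand of the oncostatin M receptor, had 2 reads in day 2 EXP replicate 2 and none in any other library. Ctf1, Ctf2, Cntf, Il27, Ebi3 and Il31 had at most 2, 11, 3, 10, 7 and 2 reads in a library. A count of 3, taken as the smallest that can be told from 0, was 0.0993 to 0.140 CPM on plain totals, for counting error only.

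Of the 4 receptor subunits, Osmr and Lifr were higher in EXP on days 1 and 2, Il6ra was lower on day 4, and Il6st was not called. Il6st, encoding gp130, was the most abundant of them per length, at a median of 71.7 CPM per kilobase over the 22 libraries, followed by Osmr at 18.8, Lifr at 4.41 and Il6ra at 3.45. The ranges over libraries of Il6st (44.9 to 80.7) and Osmr (9.42 to 33.9) did not overlap. Those of Osmr and Lifr (2.39 to 9.52) met only at their ends, and those of Lifr and Il6ra (0.653 to 8.08) overlapped widely.

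Osmr, the signalling chain for oncostatin M, was at 229, 183, 191 and 114 CPM in CTRL and 352, 266, 227, 348 and 347 CPM in EXP on day 1. The day 2 values were 190.4, 192 and 164 CPM in CTRL and 411, 316 and 361 CPM in EXP. The log2 fold changes were 0.78 on day 1 (standard error 0.19, adjusted p = 0.00450) and 0.99 on day 2 (standard error 0.23, adjusted p = 0.00756). The arms did not overlap on day 2, and on day 1 the lowest EXP library lay just under the highest CTRL library. On day 4 CTRL held 243, 204, 181 and 221 CPM and EXP 341, 219 and 339 CPM, with 2 of 3 EXP libraries above all CTRL libraries. That log2 fold change of 0.50 (95% interval 0.05 to 0.94, adjusted p = 0.0964) was not called, though on plain library totals it was (0.82, adjusted p = 0.0160, range over all alternatives 0.0160 to 0.369). A difference of the effect between days was not called for Osmr (adjusted p = 0.534), so the loss of the call on day 4 is not shown to be a smaller effect.

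Lifr, the LIF receptor chain, was at 39.5, 37.6, 41.9 and 34.3 CPM in CTRL and 82.0, 57.7, 72.9, 103 and 87.6 CPM in EXP on day 1, with no overlap of the arms and a log2 fold change of 1.07 (standard error 0.23, adjusted p = 0.00167). On day 2 it was at 39.9, 41.6 and 25.7 CPM in CTRL and 87.4, 55.4 and 78.4 CPM in EXP, again with no overlap, and the log2 fold change was 1.05 (standard error 0.28, adjusted p = 0.0160). The day 4 libraries held 35.9, 29.8, 32.4 and 53.2 CPM in CTRL and 67.2, 33.4 and 70.7 CPM in EXP, where EXP replicate 2 lay among the CTRL libraries and the other two above them. The day 4 log2 fold change of 0.60 (95% interval 0.07 to 1.13, adjusted p = 0.0952) was not called. Without day 4 EXP replicate 2 or day 4 CTRL replicate 4 it was (adjusted p = 0.0285 and 0.0384), as it was on plain library totals (0.0207, range over all alternatives 0.0207 to 0.379). The day 2 call was lost without day 2 CTRL replicate 3, EXP replicate 1 or EXP replicate 3 (adjusted p = 0.0855, 0.0892 and 0.0526, range 0.00116 to 0.0892). Dependence of the Lifr effect on the day was not called (adjusted p = 0.570).

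Il6ra, the receptor that makes a cell sensitive to IL-6 directly, had lower values in most EXP libraries on each day. On day 1 it was at 69.8, 54.0, 45.3 and 30.5 CPM in CTRL and 44.6, 19.5, 14.2, 26.2 and 27.4 CPM in EXP. The day 2 levels were 51.8, 40.99 and 44.2 CPM in CTRL and 11.8, 19.5 and 21.5 CPM in EXP, with no overlap, and the day 4 levels were 26.0, 38.3, 37.8 and 34.9 CPM in CTRL and 5.64, 8.99 and 29.1 CPM in EXP, where replicate 3 lay within the CTRL range. The log2 fold changes of -0.92 on day 1 (95% interval -1.70 to -0.14, adjusted p = 0.0699) and -1.38 on day 2 (95% interval -2.34 to -0.41, adjusted p = 0.0546) were not called, and that of -1.24 on day 4 (95% interval -2.16 to -0.32, adjusted p = 0.0493) was. These calls sit at the threshold. The day 4 call was lost without CTRL replicate 2 (adjusted p = 0.0830), CTRL replicate 3 (0.0921), CTRL replicate 4 (0.0820), EXP replicate 1 (0.199) or EXP replicate 2 (0.202), and the day 1 difference was called without CTRL replicate 4 (0.0454) or EXP replicate 1 (0.0241). Without day 4 EXP replicate 3 the day 4 log2 fold change was -2.23 (adjusted p = 6.10e-04), and over the fits that left out 1 library it ran from -2.23 to -0.88. Over all alternatives the adjusted p of Il6ra ran from 0.00913 to 0.785 on day 1, from 0.00213 to 0.210 on day 2 and from 6.10e-04 to 0.215 on day 4. In M21, 242 of its 8642 exonic bases lie opposite another gene model, and the strandedness of the counting is not given in the sources used here.

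Il6st was called on no day on the TMM scale, and on plain library totals it was called on day 2 (log2 fold change 0.79, adjusted p = 0.0151, range over all alternatives 0.0151 to 0.72). It had group means between 662 and 819 CPM, the lowest and highest being CTRL and EXP of day 2. Its log2 fold changes were -0.02 (95% interval -0.38 to 0.34), 0.31 (95% interval -0.13 to 0.75) and -0.03 (95% interval -0.44 to 0.39) on days 1, 2 and 4, with adjusted p of 0.951, 0.365 and 0.944. The intervals left out a 2-fold difference in either direction on all 3 days. On day 1 the EXP libraries held 818, 878, 498, 798 and 865 CPM, of which replicate 3 was the lowest of all 22 libraries.

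**Figure D3:**
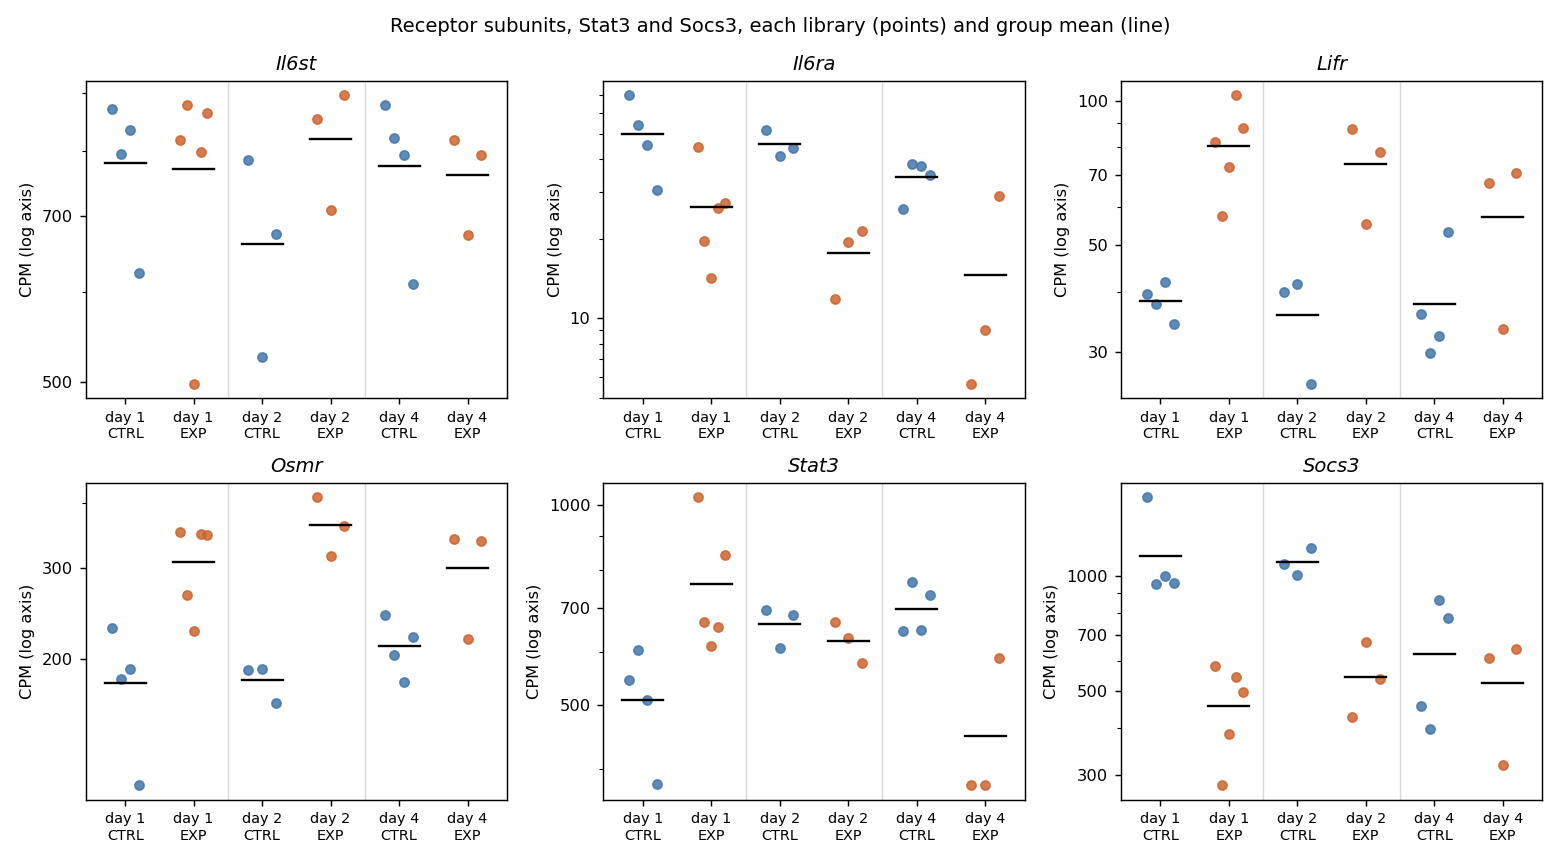
Level of the receptor subunits, Stat3 and Socs3 in every library (points, CPM on a log axis whose range differs by panel) with group means as lines, by day and arm (CTRL blue, EXP orange). Osmr and Lifr sit higher in EXP on days 1 and 2, Socs3 sits lower in EXP on days 1 and 2, and Stat3 is higher in EXP on day 1 and lower on day 4.

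Among 5 other receptor subunits, 1 was called higher on day 1 and 0 on days 2 and 4, with a median log2 fold change of 0.06, 0.53 and -0.42. The called gene was Cntfr, which encodes the receptor for CNTF and for CLCF1. Cntfr was at 4.49, 6.91, 2.23 and 3.81 CPM in CTRL and 119, 14.0, 96.2, 18.9 and 32.4 CPM in EXP on day 1, with no overlap and a log2 fold change of 3.69 (standard error 0.71, adjusted p = 8.26e-04). The day 2 libraries held 1.87, 1.55 and 2.50 CPM in CTRL and 6.11, 7.33 and 5.57 CPM in EXP, and those of day 4 2.08, 1.26, 2.61 and 8.08 CPM in CTRL and 1.49, 0.140 and 1.68 CPM in EXP. The arms did not overlap on day 2 and overlapped on day 4. These log2 fold changes, 1.68 (95% interval -0.03 to 3.38, adjusted p = 0.187) and -1.66 (95% interval -3.32 to 0.01, adjusted p = 0.140), were not called, and the effect on Cntfr differed between the days (joint adjusted p = 0.0124). Il11ra1 and Il11ra2, the genes for the IL-11 receptor, were not called, with group means of 356 to 523 CPM for Il11ra1 and 80.4 to 163 CPM for Il11ra2. Those paralogs are nearly identical, and how reads were divided between them is uncertain. Il27ra and Il31ra were not called either and stayed at group means of at most 1.91 and 23.6 CPM.

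Stat3, the transcription factor at the end of the pathway, was higher in EXP on day 1 and lower on day 4. On day 1 it was at 545, 605, 508 and 381 CPM in CTRL and 1028, 668, 613, 656 and 843 CPM in EXP, so that every EXP library lay above every CTRL library. The log2 fold change was 0.58 (standard error 0.18, adjusted p = 0.0175). The day 2 values were 694, 609 and 684 CPM in CTRL and 666, 631 and 579 CPM in EXP, overlapping, with a log2 fold change of -0.08 (95% interval -0.53 to 0.36, adjusted p = 0.841). On day 4 CTRL held 647, 765, 649 and 733 CPM and EXP 378, 379 and 588 CPM, with all EXP libraries under all CTRL libraries and a log2 fold change of -0.64 (standard error 0.20, adjusted p = 0.0281). The effect differed between the days (joint adjusted p = 0.0186) and was lower by 1.22 on the log2 scale on day 4 than on day 1 (log2 difference -1.22, standard error 0.27, adjusted p = 0.00664). Within EXP the change over days was called (adjusted p = 0.0297), and within CTRL it was not (adjusted p = 0.367).

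Single libraries decided several of these Stat3 calls. The day 1 call was lost without CTRL replicate 4 (adjusted p = 0.0690) or EXP replicate 1 (0.0558), with a range of 0.00190 to 0.127 over all alternatives. The day 4 call was lost without CTRL replicate 2 (0.0575), CTRL replicate 4 (0.0582), EXP replicate 1 (0.111) or EXP replicate 2 (0.133), with a range of 0.00473 to 0.151. The day-dependent effect passed without any library other than day 4 EXP replicate 2 (adjusted p = 0.0523, range 9.19e-04 to 0.155), and the change within EXP was lost without day 1 EXP replicate 1 (0.0744), day 4 EXP replicate 1 (0.0883) or day 4 EXP replicate 2 (0.140), with a range of 0.00552 to 0.140. The direction on days 1 and 4 was the same in all these fits. Stat3 and Stat5a share 72 exonic bases on opposite strands in M21.

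Socs3, the feedback inhibitor, was lower in EXP on days 1 and 2. On day 1 it was at 1611, 953, 1002 and 961 CPM in CTRL and 579.7, 282, 384, 542 and 495 CPM in EXP, and the log2 fold change was -1.31 (standard error 0.26, adjusted p = 9.86e-04). The day 2 libraries held 1075, 1006 and 1182 CPM in CTRL and 427, 669 and 537 CPM in EXP, with a log2 fold change of -0.998 (standard error 0.32, adjusted p = 0.0450). The arms did not overlap on either day, and CTRL replicate 1 of day 1 was the highest of all libraries. On day 4 Socs3 was at 454, 396, 866 and 777 CPM in CTRL and 610.2, 319 and 642 CPM in EXP, overlapping, with a log2 fold change of -0.25 (95% interval -0.88 to 0.38, adjusted p = 0.583). The EXP means were close to each other, at 457, 544 and 524 CPM, and the CTRL means were 1132, 1088 and 624 CPM. Neither the change within CTRL (adjusted p = 0.230) nor the dependence of the effect on the day (adjusted p = 0.185) was called. The day 2 call was lost without any 1 of the 3 CTRL libraries (adjusted p = 0.0933, 0.0875 and 0.116 for replicates 1, 2 and 3), EXP replicate 1 (0.188) or EXP replicate 3 (0.117), with a range of 0.00473 to 0.232 over all alternatives.

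Immediate early genes, which respond within minutes to growth factors and stress and are also raised by tissue digestion, were measured beside Socs3. Of 14 such genes, 1 rose and 5 fell on day 1, 1 rose and 5 fell on day 2, and 0 rose and 6 fell on day 4. Of all tested genes, 13.6%, 7.85% and 13.6% rose and 14.9%, 5.62% and 8.96% fell on these days. The list's median log2 fold changes were -0.62, -1.01 and -0.76, against 0.008, 0.025 and 0.055 over all tested genes. Atf3, a stress-induced transcription factor, fell by 1.15 on the log2 scale on day 1 (standard error 0.23, adjusted p = 9.66e-04) and by 2.36 on day 2 (standard error 0.30, adjusted p = 7.20e-05). Btg2 fell by 1.06 on day 1 (adjusted p = 0.00651), Nr4a1 by 1.48 on day 2 (adjusted p = 0.00431) and by 1.58 on day 4 (adjusted p = 0.00164), and the phosphatase gene Dusp1 by 2.15 on day 4 (adjusted p = 0.00464). The Btg2 call was lost on the high side of the library division (-0.95, adjusted p = 0.1525). Without day 4 EXP replicate 3 the Dusp1 log2 fold change was -2.91, and with libraries of the day only its call was lost (-2.20, adjusted p = 0.0728). Jund, of the AP-1 family, fell by 1.39 on day 2 (adjusted p = 0.0317), a call lost without CTRL replicate 2 (adjusted p = 0.202) or EXP replicate 1 (0.122), 2 (0.0520) or 3 (0.101). The Jund call was also lost on plain library totals (-0.97, adjusted p = 0.0998), with no filter (0.0678) and with a replicate block (0.0624). The heat shock gene Hspa1b, which shares reads with its near-identical copy Hspa1a, had a log2 fold change of -1.22 on day 4 (adjusted p = 0.0297), lost without CTRL replicate 2 (0.0584) or 4 (0.102) or EXP replicate 1 (0.122) or 2 (0.138). In 7 of 11 other alternatives the Hspa1b call was lost too. Among these were plain library totals (-0.97, adjusted p = 0.0524) and libraries of the day only (-1.27, adjusted p = 0.102). Ier3 rose on day 1 (log2 fold change 1.51, adjusted p = 6.30e-05) and was the gene that rose on day 2. Named after their values were seen, the other genes that fell were Jun, Nr4a1 and Zfp36 on day 1 and Fosb and Ier2 on day 2. The summed level of the 14 genes was 12417 to 15698 CPM in CTRL and 8059 to 12857 CPM in EXP on day 1, and 14316 to 17014 CPM in CTRL and 7613 to 8569 CPM in EXP on day 2. The day 4 sums were 9279.8 to 17869 CPM in CTRL and 6052 to 8127 CPM in EXP, so the arms overlapped on day 1 only. Socs3 was lower in EXP on days 1 and 2, when 5 of these genes fell, and was not called on day 4, when 6 of them fell. A dependence of the Socs3 effect on the day was not called (joint test, adjusted p = 0.185). The part of these genes in the Socs3 level was not tested.

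Of 6 genes for JAK kinases and other STATs, 2 rose and 2 fell on day 1, against 13.6% and 14.9% of all tested genes. On days 2 and 4, 0 were called, against 13.5% and 22.6% of all tested genes. Jak2, a kinase bound to gp130, was at 15.0 ± 2.81 CPM (SD over 4 libraries) in CTRL and 42.6 ± 17.2 CPM (SD over 5 libraries) in EXP on day 1, with a log2 fold change of 1.503 (standard error 0.29, adjusted p = 7.88e-04). Stat5a rose by a log2 fold change of 1.08 (standard error 0.26, adjusted p = 0.00440). Tyk2, another JAK kinase, fell on day 1 and was named after its values were seen. Not every gene of this list is reported here.

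Of 8 negative regulators and receptor-cleaving proteases, 2 rose and 3 fell on day 1, 0 were called on day 2 and 1 fell on day 4. The shares of all tested genes that rose on these days were 13.6%, 7.85% and 13.6%, and those that fell 14.9%, 5.62% and 8.96%. Ptpn11, whose phosphatase SHP2 also binds gp130, rose on day 1 (log2 fold change 0.64, standard error 0.14, adjusted p = 0.00257). Pias3, an inhibitor of STAT3, fell by 0.70 (standard error 0.18, adjusted p = 0.00722) and Socs2 by 0.82 (standard error 0.26, adjusted p = 0.0225). The Pias3 call was lost on plain library totals (-0.49, adjusted p = 0.118) and on the high side of the library division (-0.93, adjusted p = 0.05165). On that side the Ptpn11 call was lost too (0.58, adjusted p = 0.110). The Socs2 call was lost without day 1 CTRL replicate 1 or 2 (adjusted p = 0.0975 and 0.0785) or EXP replicate 2 or 3 (0.0549 and 0.0592). On plain library totals it was lost too (-0.597, adjusted p = 0.07895). Socs1, an inhibitor of JAK kinases, was at 13.1 to 211 CPM in CTRL and 7.53 to 14.7 CPM in EXP on day 4, a log2 fold change of -3.27 (standard error 0.78, adjusted p = 0.00736). Without day 4 CTRL replicate 4 it was -2.62 (adjusted p = 0.0236), and the call was lost with limma voom (-2.25, adjusted p = 0.104), with libraries of the day only (-3.34, adjusted p = 0.0576) and on the low side of the library division (-1.36, adjusted p = 0.237). The other genes called on day 1 were Ptpn2, higher, and Adam10, lower, named after their values were seen. On days 1 and 2 the Socs1 log2 fold changes were -1.04 (adjusted p = 0.207) and -2.12 (adjusted p = 0.0727), which were not called. The list's median log2 fold change was -0.39, -0.15 and -0.08 on days 1, 2 and 4.

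Of 22 genes known as targets of STAT3 or as acute-phase genes, 8 rose and 1 fell on day 1, 7 rose and 0 fell on day 2, and 7 rose and 6 fell on day 4. Those 9, 7 and 13 called of 22 stand against 28.5%, 13.5% and 22.6% of all tested genes. Their median log2 fold change was 0.47, 0.24 and 0.12, against 0.008, 0.025 and 0.055. The largest rises were those of Lcn2, Saa3, Lrg1 and Hp, secreted acute-phase proteins also driven by other pathways. Lcn2 was at 2.23 to 4.41 CPM in CTRL and 24.1 to 285 CPM in EXP on day 1 (log2 fold change 5.36, standard error 1.03, adjusted p = 8.13e-04), and its log2 fold changes on days 2 and 4 were 8.08 (adjusted p = 0.00200) and 5.18 (adjusted p = 0.00312). These sizes rested on single libraries, since Lcn2 was at 4.71 on day 1 without EXP replicate 3, at 6.95 and 8.78 on day 2 without EXP replicate 1 and CTRL replicate 3, and at 4.14 and 6.48 on day 4 without EXP replicate 2 and CTRL replicate 4, and it was called in each of those fits. Saa3 was at 91.1 to 197 CPM in CTRL and 1115 to 8927 CPM in EXP on day 1 (log2 fold change 4.47, standard error 0.95, adjusted p = 0.00180), with a log2 fold change of 6.45 on day 2 (adjusted p = 0.00243), and it was called on day 4 too. Without day 1 EXP replicate 3 the day 1 value of Saa3 was 3.58. Hp, encoding haptoglobin, was called from day 2 on, at 0.548 to 2.17 CPM in CTRL and 608 to 717 CPM in EXP on day 4 (log2 fold change 8.92, standard error 1.34, adjusted p = 3.72e-04), and its effect differed between days (joint adjusted p = 0.0156). On day 2 the Hp log2 fold change was 7.37 (adjusted p = 0.00321), and 6.52 without day 2 EXP replicate 1. Lrg1 rose each day, by log2 fold changes of 4.16 on day 1 (adjusted p = 5.40e-04) and 6.43 on day 4 (adjusted p = 2.57e-04), the latter 7.28 without CTRL replicate 4 and 5.77 without EXP replicate 3 of that day. The gene that fell on day 1 was Ccnd1, named after its values were seen. The 6 that fell on day 4 were Cebpd, Bcl3, Fgl2, Cebpb, Pim1 and Icam1, named here after their values were seen. Stat3 itself was lower on day 4, when 7 genes of this list were higher and 6 lower in EXP.

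**Figure D4:**
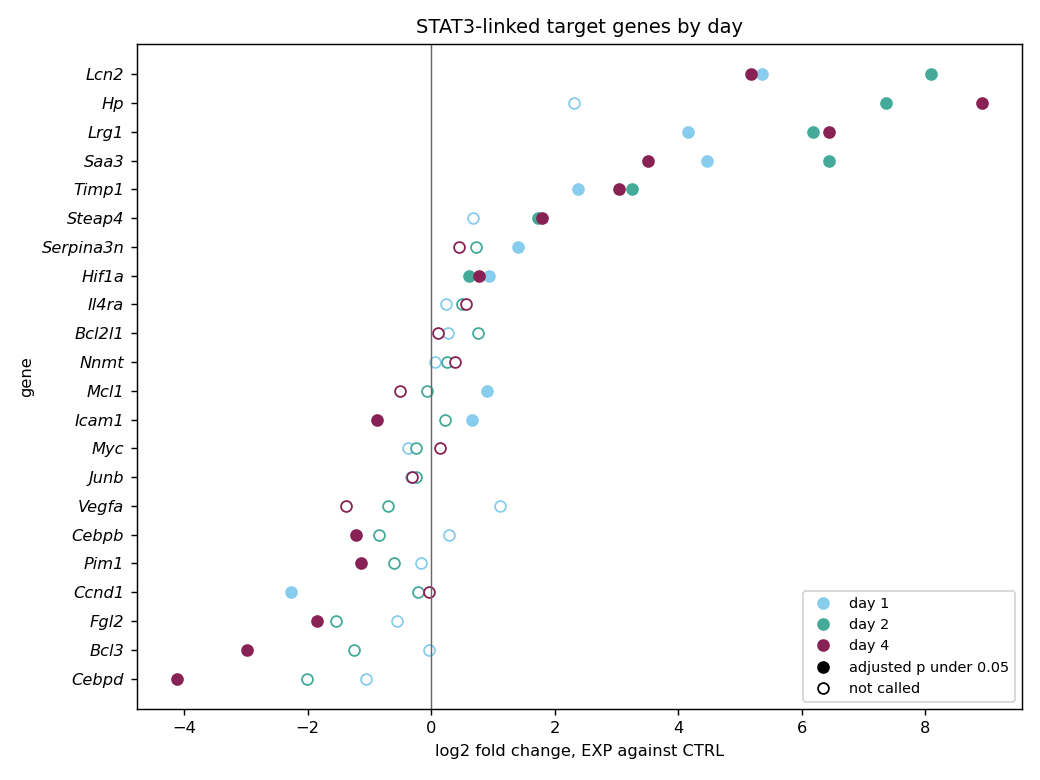
Log2 fold change of EXP against CTRL on days 1, 2 and 4 (colours) for the 22 STAT3-linked genes (rows), with filled points for an adjusted p under 0.05 in the edgeR fit. Lcn2, Hp, Lrg1 and Saa3 lie far to the right on the days they were called, and 6 genes at the lower end are called lower on day 4.

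Genes upstream of the ligands were examined next, since IL-1 and TNF acting through NF-kB are known inducers of Il6 and Lif in fibroblasts. Il1a and Il1b had too few counts to be tested. Of the 7 tested genes of this list, 3 rose on day 1, 1 rose and 1 fell on day 2, and 1 rose and 2 fell on day 4. Over all tested genes, 13.6%, 7.85% and 13.6% rose and 14.9%, 5.62% and 8.96% fell on these days. Il1r1, the IL-1 receptor, was higher each day, by log2 fold changes of 1.31 (standard error 0.21, adjusted p = 1.60e-04), 1.505 (standard error 0.26, adjusted p = 8.69e-04) and 0.87 (standard error 0.23, adjusted p = 0.0122). The day 4 call of Il1r1 was lost without EXP replicate 1 (adjusted p = 0.129), with limma voom (0.0524) and with libraries of the day only (0.0913). Nfkb1 and Tnfrsf1a rose on day 1 (log2 fold change 1.37, adjusted p = 5.71e-04, and 0.45, adjusted p = 0.00525). The Tnfrsf1a call was lost on the high side of the library division (0.38, adjusted p = 0.224). Nfkbia, the inhibitor that NF-kB itself induces, had log2 fold changes of -0.67 on day 2 (adjusted p = 0.0337) and -0.67 on day 4 (adjusted p = 0.0190), and Rela fell by 0.64 on day 4 (adjusted p = 0.0283). The day 2 call of Nfkbia was lost without CTRL replicate 1, 2 or 3 (adjusted p = 0.0944, 0.0722 and 0.0806) or EXP replicate 1 or 3 (0.164 and 0.128), and its day 4 call without CTRL replicate 2 (adjusted p = 0.0588) or EXP replicate 1 (0.101). The Rela call was lost without CTRL replicate 4 (0.0935), EXP replicate 1 (0.136) or EXP replicate 2 (0.0569). On plain library totals Nfkbia was not called on day 2 (-0.22, adjusted p = 0.419) or day 4 (-0.40, 0.0895). Its day 4 call was also lost with libraries of the day only (0.127) and on the low side of the library division (0.0814). Rela was not called with limma voom (0.0712) or on plain library totals (-0.37, 0.180). Nor was Rela called with libraries of the day only (0.0928), the division as a covariate (0.0762) or the low side (0.173).

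The genes whose log2 CPM ran most alike to 3 members over the 22 libraries are given by Pearson correlation, as a description, since all share group differences and depth. For Lif they were Trp53-ps (0.93), Gm9797 (0.90) and Top1 (0.90), for Socs3 they were Jun (0.87), Pigv (0.87) and Mn1 (0.87), and for Il6 they were Gm12350 (0.83), Gm17828 (0.83) and Chchd2 (0.83). Several of these are pseudogenes, whose reads can come from a parent gene, so their levels are uncertain. Jun, an immediate early gene, was the nearest to Socs3, and was at 1205 ± 244 CPM (SD over 4 libraries) in CTRL and 646 ± 131 CPM (SD over 5 libraries) in EXP on day 1.

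Within the sides of the library division, day 1 compared 3 CTRL with 2 EXP libraries on the high side and 1 CTRL with 3 EXP libraries on the low side. Lif had a log2 fold change of 3.24 (adjusted p = 0.00210) on the high side and 3.63 (adjusted p = 0.00491) on the low side. For Il11 it was 3.09 (adjusted p = 0.00298) and 3.62 (adjusted p = 0.204), and for Socs3 -1.47 (adjusted p = 0.0201) and -1.02 (adjusted p = 0.114). Osmr was at 0.62 (adjusted p = 0.0838) and 1.43 (adjusted p = 0.0318), Lifr at 0.81 (0.0548) and 1.36 (0.0915), Clcf1 at 1.48 (0.0797) and 2.75 (0.0670), and Stat3 at 0.62 (0.103) and 0.89 (0.127). Each called member thus had the same sign on both sides, 3 of the 7 were called on the high side and 2 on the low side, and the lone CTRL library of the low side was assumed to vary like the other groups. With the division as a covariate 7 members were called on day 1, 7 on day 2 and 2 on day 4. The high side held only CTRL libraries of day 4, so no within-side value exists for that side. On the low side of day 4, Il11 was called (log2 fold change 5.79, adjusted p = 0.0212), and Clcf1 (1.63, adjusted p = 0.0863), Il6ra (-1.15, adjusted p = 0.215) and Stat3 (-0.65, adjusted p = 0.0987) were not.

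Of the 15 called list genes refitted under the alternatives on day 1, 11 were called on the high side and 2, Il1r1 and Ier3, on the low side, which holds 1 CTRL library, and none changed sign. On day 2, 7 of 8 such genes were called on the low side. That side holds every day 2 library, so this fit compared the same day 2 libraries as the main one and does not check the division. Cntfr had log2 fold changes of 3.86 (adjusted p = 0.0281) on the high side and 3.69 (adjusted p = 0.0964) on the low side. Jak2 was at 1.05 (0.0417) and 2.11 (0.0528), Lcn2 at 5.32 (0.0219) and 5.68 (0.189), Saa3 at 4.02 (0.0496) and 4.52 (0.205), and Lrg1 at 5.05 (0.00977) and 2.92 (0.257). Socs2 was at -1.20 (0.0296) on the high side and -0.22 (0.838) on the low side. Of 10 such genes called on day 4, 3 were called on the low side, with 2 CTRL libraries, namely Hp, Lrg1 and Nr4a1. Lcn2 was at 5.91 there (0.0635) and Dusp1 at -1.21 (0.149).

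Marker sums of some other cell types separated the arms on each of the 3 days, and are given on plain totals. On day 1, 5 neutrophil markers summed to at most 0.148 CPM in CTRL, with S100a8, S100a9 and Retnlg at 0, and to 0.240 to 0.963 CPM in EXP. The 5 adipocyte markers summed to 0.329 to 12.2 CPM in CTRL and at most 0.280 CPM in EXP that day. The edges of both separations lay close to the floor of 3 counts for 1 gene, 0.110 to 0.126 CPM in these libraries. The endothelial, macrophage, T cell, mast cell and melanocyte, keratinocyte, pericyte and smooth muscle, and Schwann sums of the arms overlapped on day 1.

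On day 2, the sums of 6 lists were higher in every EXP library than in every CTRL library. These were 6 endothelial markers (0.399 to 0.699 CPM in CTRL, with Cldn5 at 0, and 2.22 to 8.50 CPM in EXP), the neutrophil markers (at most 0.200 and 0.503 to 5.93 CPM) and 3 T cell markers (1.72 to 4.15 and 4.78 to 8.34 CPM). The others were 6 mast cell and melanocyte markers (4.40 to 11.4 and 19.3 to 39.5 CPM), 5 pericyte and smooth muscle markers (5.91 to 14.4 and 21.9 to 47.6 CPM) and the adipocyte markers (at most 2.24 and 2.83 to 67.99 CPM). The keratinocyte and Schwann sums overlapped on days 2 and 4, and the neutrophil and the mast cell and melanocyte sums on day 4.

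On day 4, 4 lists separated in that direction. The endothelial sum was 3.53 to 9.14 CPM in CTRL and 21.8 to 56.2 CPM in EXP, the pericyte and smooth muscle sum 14.3 to 21.4 and 26.2 to 56.5 CPM, and the adipocyte sum 0.118 to 0.926 CPM, with Plin1 and Lep at 0, and 2.37 to 317 CPM. The T cell sum was 0.254 to 5.89 and 12.1 to 38.9 CPM, nearly all of it Cd3e, whose mean in EXP was 21.4 CPM against 0.0456 CPM for Cd3d and 0.283 CPM for Trbc2. Replicates 1, 2 and 3 of day 4 EXP, in falling order of Il11, had T cell sums of 38.9, 14.2 and 12.1 CPM, pericyte and smooth muscle sums of 56.5, 31.5 and 26.2 CPM, endothelial sums of 34.1, 56.2 and 21.8 CPM and adipocyte sums of 2.37, 115 and 317 CPM. The 7 macrophage markers overlapped on each day, at 106 to 132 CPM in CTRL and 100.2 to 167 CPM in EXP on day 4, with Ptprc and Adgre1 at 0 in CTRL. The sums of 8 fibroblast markers were lower in every EXP library than in every CTRL library on each day, at 143430 to 182910 and 92640 to 119070 CPM on day 1, 211060 to 231740 and 62168 to 128540 CPM on day 2, and 172230 to 211550 and 54232 to 171870 CPM on day 4. Collagen genes made up most of these sums, with means of 78869 CPM for Col1a1 and 71178 CPM for Col1a2 in day 1 CTRL. Of the list genes used for sorting, Cd34 had a lower mean in EXP on each day, and Pdgfra went the other way. Pdgfra was at 296 to 429 CPM in CTRL and 472 to 860 CPM in EXP on day 1. Its ranges were 185 to 211 and 495 to 1293 CPM on day 2, and 237 to 290 and 301 to 1139 CPM on day 4. The part of these differences in the member values of any day was not tested.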

How the data were processed

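Bulk RNA-seq was measured in 22 libraries of sorted skin fibroblasts, made with the RNeasy Micro kit and an ultra-low-input Illumina protocol, per the labels' protocols. The authors deposited whole-number read counts per Ensembl gene, not normalized, for 55414 genes. Trimmomatic and the mm39 build are named, per the submitters' processing notes; the aligner, counter, annotation and strandedness are not given in the sources used here. GENCODE M21 gave a symbol to 52081 IDs, and exon lengths.

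From these counts, TMM factors were computed on all genes of the table, and genes passing edgeR's filterByExpr (minimum count 10) were then kept. All 6 groups were fitted together with edgeR 4.0.16 (quasi-likelihood test, R 4.3.3, 16 residual degrees of freedom). Benjamini-Hochberg adjustment was over all 17554 tested genes, with a threshold of 0.05. CPM are on TMM-scaled totals, log2 CPM with a prior count of 2, and marker sums on plain totals. On simulated day 1 counts for 17136 genes, 200 of them changed, 30% of 2-fold and 75% of 4-fold changes were recovered, with 5 false calls of 110. In the data 28.5% of genes were called on day 1, so these rates need not hold there. Depth was 21461294 to 30210204 counts; a floor of 3 counts covers counting error only.

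The members and gene lists were chosen with earlier results of these data known. All members are named, and some results for genes of the lists are not reported here. Of each list, the called genes with the 3 largest absolute log2 fold changes on a day are named with values, as is any gene of the other ligand and receptor lists, and for Il6, Lif and Socs3 the 3 genes with the highest correlation. Alternatives were DESeq2 1.42.0, limma 3.58.1 voom, other scalings and filters, fits by day, a replicate block, the library division and each library left out. The main fit did not pair libraries by number, and the same-number correlations of days 1, 2 and 4 could not decide whether they are paired.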

Additional observations from a re-analysis of the deposited data

Results flagged for a closer look

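In groups of 4 or 5 libraries, 1 library lay far from the others for 11 of 99 sets of values searched, where about 1 in 20, or 4.95, would by chance. That rate assumes independent, normally distributed values, while these are CPM of genes that share libraries. Whether 11 is an excess was therefore not tested. Among the members these were Il6st in day 1 EXP replicate 3, low at 497.88 CPM, and Socs3 in day 1 CTRL replicate 1, high at 1611.1 CPM.

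On day 1, EXP replicate 3 was also high for Saa3 (8927.1 CPM) and Nfkb1 (297.36 CPM), EXP replicate 2 was high for Hp (230.08 CPM) and EXP replicate 5 for Nfkbia (1738.4 CPM). CTRL replicate 1 of day 1 was high for Lcn2 (4.4078 CPM) and Rela (74.059 CPM). On day 4, CTRL replicate 3 was low for Ptpn11 (41.79 CPM) and Il1r1 (142.35 CPM), and CTRL replicate 1 was high for Pias3 (23.515 CPM).

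The difference between EXP and CTRL depended on the day for 7 named genes by the joint edgeR quasi-likelihood test, which 8.64% of all tested genes passed. The adjusted p was 7.09e-04 for Lif, 0.01856 for Stat3, 0.01243 for Cntfr, 0.01556 for Hp, 0.02453 for Nfkb1, 0.03983 for Nfkbia and 0.02559 for Atf3.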

How the results depend on the processing

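Over the alternatives run, 470 of 560 refits of a member on a single day kept direction and side of the threshold, 50 lost a call, 18 gained one and 22 reversed; none of the reversals concerned a called difference. The cause of the changes was not tested. On library totals without TMM the median gene shifted to 0.207, 0.489 and 0.363 on days 1, 2 and 4, and 66.2%, 90.5% and 80.8% of calls were higher in EXP, against 47.8%, 58.3% and 60.3%; Il6st turned to 0.173 on day 1 and 0.292 on day 4, Stat3 to 0.390 on day 2, and Lif to 0.174 and Socs3 to 0.078 on day 4. The same setting called Il6st (0.793) on day 2 and Lifr (0.925) and Osmr (0.824) on day 4, and lost Socs3 on day 2 (-0.549) and Stat3 on day 4 (-0.369). With the library division as a covariate Il6st was 0.020 on day 1 and 0.021 on day 4, and 2 members were called on day 4. Chosen after seeing the data, the low side alone gave Il6st 0.207 on day 1 and Il6 -0.007 and Socs3 0.300 on day 4, with 2 members called on day 1, 1 on day 4, 1 for the day-dependent effect, 1 within EXP and 0 within CTRL. The high side alone gave Il6st 0.029 and 3 members on day 1. Limma voom called 2 members within CTRL, and libraries of the day only called 1 on day 4.

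Leaving out 1 library gave 7 members on day 1, 3 to 6 on day 2, 1 to 4 on day 4, 1 to 3 for the day-dependent effect, 1 to 3 within EXP and 0 to 1 within CTRL. The 7 of day 1 were not always the same genes, since Il6ra took the place of Stat3 without CTRL replicate 4 or EXP replicate 1. Log2 fold changes ran from -0.112 to 0.104 (day 1) and -0.125 to 0.055 (day 4) for Il6st and, on day 4, from -0.049 to 0.722 for Il6, -0.406 to 0.243 for Lif and -0.424 to 0.006 for Socs3. Among these, Il6st reversed at 0.038, 0.016 and 0.104 without day 1 CTRL replicate 1, CTRL replicate 3 and EXP replicate 3, and at 0.040, 0.003 and 0.055 without day 4 CTRL replicate 1, CTRL replicate 2 and EXP replicate 2; Lif also at 0.063 without day 4 EXP replicate 3.

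With the replicate number as a block, 8, 7 and 4 members were called on days 1, 2 and 4, 2 for the day-dependent effect, 2 within EXP and 1 within CTRL, and Lif on day 4 was 0.010. Same-numbered libraries correlated at -0.067 to 0.164 on day 1, -0.063 to -0.004 on day 2 and 0.079 to 0.147 on day 4. Those with different numbers correlated at -0.278 to 0.116 on day 1, -0.033 to 0.042 on day 2 and -0.158 to 0.099 on day 4. With so few pairs, these values cannot decide whether same-numbered libraries share more than a number.

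Over all genes, 5003, 2365 and 3962 were called on days 1, 2 and 4, 1517 for the day-dependent effect, 2478 within EXP and 53 within CTRL. DESeq2 called 2609 day-dependent and 525 within CTRL, voom 4580 on day 2, 2335 and 592, library totals 4632 on day 2 and 163 within CTRL, a stricter filter 86 within CTRL, the day alone 1101 on day 4, the block 1010 day-dependent and 9 within CTRL, and the covariate 22 within CTRL. A log2 change of at least 1 left 2510, 1571 and 2423. The low side gave 661 on day 1, 1057 on day 4, 53 day-dependent, 1397 within EXP and 8 within CTRL, and the high side 2218 on day 1. Leaving out 1 library gave as few as 895 on day 2 (day 2 EXP replicate 1), 1630 on day 4 (day 4 EXP replicate 1), 893 day-dependent (day 1 CTRL replicate 3), 1297 within EXP (day 4 EXP replicate 2) and 5 within CTRL (day 1 CTRL replicate 1), and as many as 2552 day-dependent (day 4 EXP replicate 3) and 84 within CTRL (day 4 CTRL replicate 3).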
